A study of Homo sapiens with 18 samples.

Results

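OR51E1 and OR51E2 are olfactory receptor genes that lie side by side on human chromosome 11 and are known for expression in prostate epithelium. They are described here in LNCaP cells, an androgen-sensitive line from a human prostate cancer metastasis, in which the forkhead transcription factor FOXA1 was depleted and then re-expressed as wild-type or mutant protein. They are 2 of the 11590 genes measured. The pair was chosen by measured values of OR51E1, which was far lower in knockdown than in control cells and with the D226N mutant than with wild-type FOXA1, so those differences are given below as a description, without a test. All of the array's probes for the pair were used, 1 for each gene.

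The study held 18 arrays, 1 for each of 9 constructs with each of 2 treatments. Control cells carried the empty pGIPZ vector and GFP, and knockdown cells carried a short hairpin RNA against FOXA1 (shFOXA1) and GFP. The other 7 lines all carried shFOXA1 and in addition wild-type FOXA1 (WT) or the G87R, D226N, M253K, F266S, L388M or FENG form. The labels do not say what FENG stands for. Every line was kept for 3 days in medium with 5% charcoal-stripped serum, which removes steroids, and then received ethanol or 1 nM of the synthetic androgen R1881 for 24 h. G87R and L388M lie outside the DNA-binding forkhead domain, whereas D226N, M253K and F266S lie within it. No source used here states whether the arrays came from separate cultures, on which slides they were run or whether a line was a clone or a pool.

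Olfactory receptors are G protein-coupled receptors that sense odorants in the nose, where they act through the G protein Golf and adenylyl cyclase to raise cyclic AMP. A few are expressed in other tissues. OR51E2, also called PSGR (prostate-specific G protein-coupled receptor), is known to respond to short-chain fatty acids and to β-ionone. OR51E1, also called PSGR2, is known to respond to medium-chain fatty acids. FOXA1 is a pioneer factor that opens chromatin at enhancers in luminal prostate cells.

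In the RefSeq annotation of GRCh38.p14, OR51E1 (Entrez gene 143503, probe ILMN_1750330) spans chr11:4643982-4655488 on the plus strand. OR51E2 (Entrez gene 81285, probe ILMN_1719298) spans chr11:4680171-4697853, so 24682 bases separate the pair. No promoter sequence of OR51E2 was available here, so it was not searched. The 250 bases before the annotated start of OR51E1, from RefSeq on GRCh38.p14 (chr11:4643732-4643981, plus strand), are shown. Capitals mark the only match to a forkhead word.
OR51E1 promoter: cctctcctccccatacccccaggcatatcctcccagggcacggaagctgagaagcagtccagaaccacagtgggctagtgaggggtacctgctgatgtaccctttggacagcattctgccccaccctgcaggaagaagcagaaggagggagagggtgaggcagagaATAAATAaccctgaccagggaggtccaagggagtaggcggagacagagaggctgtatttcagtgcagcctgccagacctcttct

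The words searched on both strands were TGTTTAC or TGTTTAT or TGTTTGC or TGTTTGT or TATTTAC or TATTTAT or TATTTGC or TATTTGT. The match is TATTTAT on the minus strand, 84 bases before the start. Of 35116 RefSeq promoter windows of this length, 7718 (21.98%) hold at least 1 such word, so the match is a common one. The steroid hormone response half-site AGAACA, searched on both strands, had 0 matches there and is present in 12.39% of the windows. These matches describe the letters of the window and say nothing about binding in these cells.

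A mean raw intensity of 233.1 to 303.9 and 15855 to 17278 detected probes were found per array, detected meaning a scanner detection p-value under 0.01. FOXA1 itself was lower in knockdown than in control cells by 0.71 ± 0.12 on the log2 scale (limma, adjusted p = 0.00287), and its probe was no higher in the WT line than in knockdown cells (log2 difference -0.35 ± 0.12, adjusted p = 0.164). Where this probe lies relative to the introduced FOXA1 is not given, so it does not show how much FOXA1 was put back. KLK3, the androgen-induced gene of prostate-specific antigen, rose with R1881 by 1.52 ± 0.10 (adjusted p = 1.05e-06). All levels below are normalized log2 intensities, in which 1 unit is a doubling, and every ± is a standard error from the fit unless stated. Levels of different probes cannot be set against each other.

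The level of OR51E1 differed in steps between the FOXA1 constructs. In ethanol it was 8.42 in control cells, 7.19 with WT, 6.51 with G87R and 6.42 with L388M. It was 5.61 with D226N, 5.52 in knockdown cells, 5.13 with FENG, 4.81 with F266S and 4.50 with M253K. Control cells were thus highest, the 3 lines with WT, G87R or L388M were intermediate and the remaining 5 lines were low. In R1881 it was 7.86 in control cells, 6.83 with WT, 6.33 with L388M and 6.28 with G87R. It was then 5.46 in knockdown cells, 5.28 with D226N, 4.48 with M253K, 4.41 with FENG and 4.37 with F266S. The same lines were high, intermediate and low in both treatments. The high and intermediate arrays ran from 6.28 to 8.42 and the low ones from 4.37 to 5.61. These groups were named from the ethanol levels, so their separation in ethanol follows from the naming. They also include the arrays that chose the pair, in both treatments. How many of all genes separate the same lines was not counted, so the ranges are a description. OR51E1 was detected on 13 of 18 arrays, and it was not detected on either array of M253K or F266S or on the R1881 array of FENG. In raw intensity its probe ran from 403.3 in control cells with ethanol to 88.1 in F266S cells with R1881.

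OR51E2 followed nearly the same order over a smaller range. In ethanol it was 7.45 in control cells, 6.75 with L388M, 6.72 with WT and 6.57 with G87R. It was 6.11 in knockdown cells, 5.87 with D226N, 5.47 with M253K, 5.36 with FENG and 4.87 with F266S. The 4 lines with control vector, WT, G87R or L388M lay above the other 5, as for OR51E1. In R1881 it was 7.28 in control cells, 6.60 with WT, 6.58 with L388M and 6.43 with G87R. It was 5.84 in knockdown cells, 5.81 with D226N, 5.04 with FENG, 4.89 with M253K and 4.85 with F266S. OR51E2 was detected on 16 of 18 arrays, the exceptions being M253K and F266S with R1881. Its raw intensity ran from 244.3 in control cells to 97.1 in M253K cells, both with R1881.

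**Figure D1:**
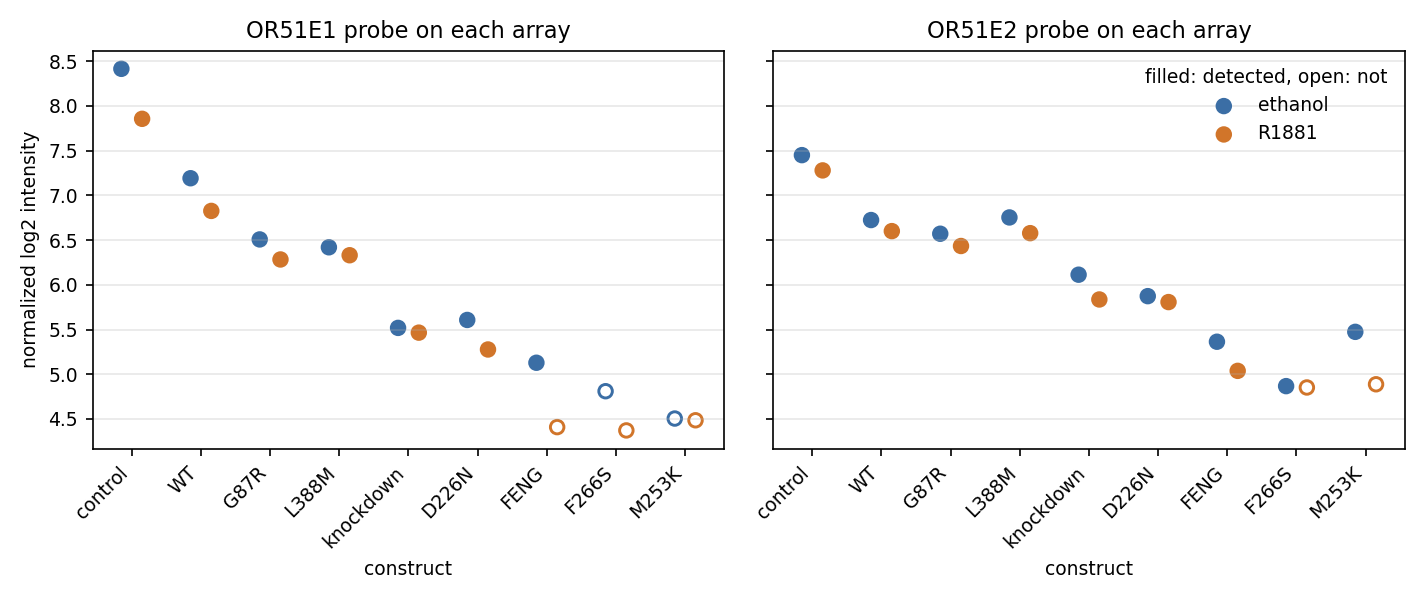
Normalized log2 intensity (vertical axis) of the OR51E1 probe (left) and the OR51E2 probe (right) on each of the 18 arrays, by construct (horizontal axis). Blue points are ethanol and orange points R1881, filled where the probe was detected and open where it was not. Control cells were highest for both genes (OR51E1 8.42 and 7.86, OR51E2 7.45 and 7.28), and all open points belong to FENG, F266S and M253K.

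Ranked by the mean of their arrays in both treatments, the constructs ran from 8.14 in control cells through 7.01 with WT, 6.40 with G87R, 6.37 with L388M, 5.49 in knockdown cells, 5.44 with D226N, 4.77 with FENG and 4.59 with F266S to 4.49 with M253K for OR51E1. The standard error of a difference between any 2 construct means was 0.172. Neighbours within 2 standard errors of each other were G87R and L388M, knockdown and D226N, FENG and F266S, and F266S and M253K, and the other steps in this order were larger. For OR51E2 the means were 7.36 in control cells, 6.67 with L388M, 6.66 with WT, 6.50 with G87R, 5.97 in knockdown cells, 5.84 with D226N, 5.20 with FENG, 5.18 with M253K and 4.86 with F266S, with a standard error of 0.144. Here L388M and WT, WT and G87R, knockdown and D226N, and FENG and M253K were within 2 standard errors, whereas F266S was below M253K by more than that. That last step lay in the ethanol arrays (5.47 with M253K and 4.87 with F266S). With R1881 the 2 lines were at 4.89 and 4.85, and OR51E2 was detected in neither. The M253K ethanol array is among those described below as deviating. The 2 genes thus shared the division into upper and lower lines and differed in the place of WT, which stood above G87R and L388M for OR51E1 and level with L388M for OR51E2.

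As a description of the values that chose the pair, OR51E1 differed by -2.64 ± 0.17 on the log2 scale between knockdown and control cells. It was thus 6.25-fold lower in knockdown cells, the lowest difference among all 11590 genes. In OR51E2 the knockdown difference was -1.39 ± 0.14 (2.62-fold lower), 40th from the lowest. In bulk RNA such as this, fewer cells with a transcript and less of it per cell cannot be told apart. WT was above knockdown by 1.52 ± 0.17 (2.86-fold) for OR51E1 and by 0.69 ± 0.14 (1.61-fold) for OR51E2. The WT line held 45.8% of the control signal of OR51E1 and 61.5% of that of OR51E2 on the offset intensity scale, so neither gene was back at the control level. The D226N level was below WT by 1.57 for OR51E1 and by 0.82 for OR51E2.

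The difference of D226N cells from knockdown cells was -0.05 for OR51E1 and -0.13 for OR51E2. M253K, F266S and FENG lay below knockdown cells in both genes. OR51E1 was at least 1.48-fold lower with M253K and at least 1.57-fold lower with F266S, where it was not detected, and it was 1.65-fold lower with FENG, where 1 of 2 arrays detected it. OR51E2 was 1.73-fold lower with M253K, 2.17-fold lower with F266S and 1.71-fold lower with FENG. Each "at least" sets the mean of the brighter group against the lowest signal among detected probes on each array of the dimmer group. These contrasts share the knockdown and WT arrays that chose the pair, so no test is given.

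**Figure D2:**
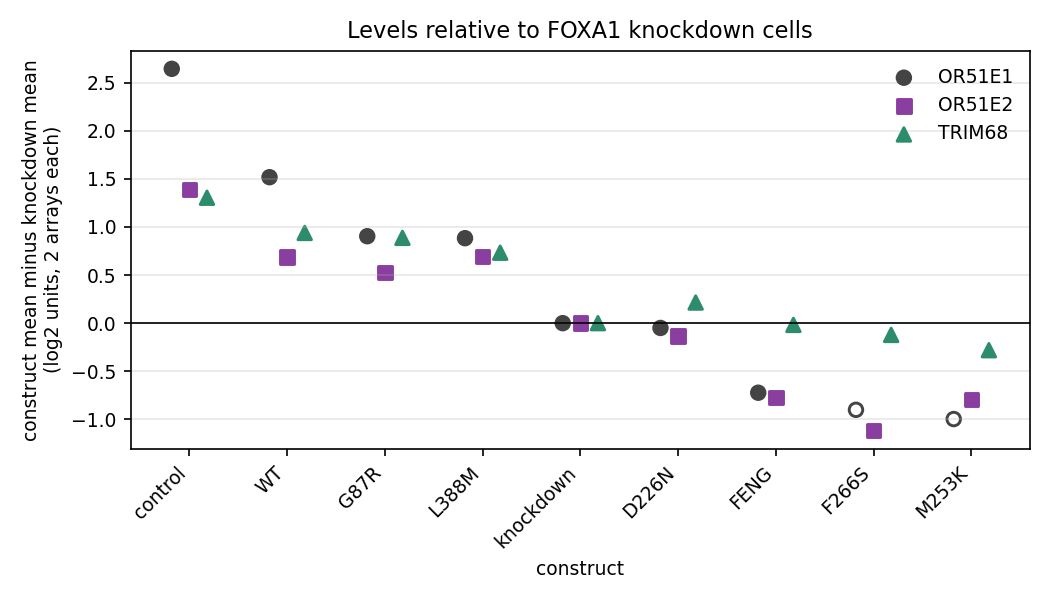
Mean of the ethanol and R1881 arrays of each construct minus the knockdown mean (log2 units, vertical axis) for OR51E1, OR51E2 and their neighbour TRIM68, by construct (horizontal axis). Open points mark constructs with no detected array for that gene. The control points stand at 2.64 for OR51E1 and 1.39 for OR51E2, and M253K, FENG and F266S lie below 0 for both receptors.

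A comparison that used none of those arrays set the forkhead-domain mutants M253K and F266S against G87R and L388M, outside the domain. OR51E2 fell with the forkhead mutants, from 6.43 to 6.75 on the 4 arrays of G87R and L388M to 4.85 to 5.47 on the 4 arrays of M253K and F266S. The log2 difference was -1.56 ± 0.10 (2.96-fold lower, limma adjusted p = 4.36e-07). OR51E1 was at 6.28 to 6.51 with G87R and L388M and at 4.37 to 4.81, detected on 0 of 4 arrays, with M253K and F266S. It was at least 2.83-fold lower (means 4.54 and 6.39, adjusted p = 5.03e-07). How many of all genes separate these 2 groups of arrays was not counted, so the ranges only describe the pair. Of all genes, 15.6% passed this test, 6.64% in the lower direction, and OR51E2 was 15th from the lowest difference. OR51E1 is given no rank, because its difference is a bound.

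The FENG form gave a similar picture against the same 2 lines. OR51E1 was 5.13 on the ethanol array of FENG and 4.41 on the R1881 array, where it was not detected. The fitted difference was -1.62 ± 0.15 (3.07-fold lower, adjusted p = 2.22e-05), with the undetected value entered as measured. OR51E2 was 5.36 and 5.04 and fell by 1.38 ± 0.12 (2.61-fold, adjusted p = 1.88e-05). Of all genes 6.67% passed this test, with 2.46% in the lower direction, and OR51E2 was 18th from the lowest difference. The comparison shares the G87R and L388M arrays with the one before. The ethanol arrays of M253K and G87R and the R1881 array of FENG shared a deviation in earlier work on these data, which was not scored again here, and with 2 arrays per construct the fit cannot tell which of them deviates. KRT18, a luminal keratin, was 5.65, 4.33 and 5.49 on the G87R, M253K and FENG arrays of these 3, and 7.00 to 8.12 on the other 15. Without these 3 arrays OR51E2 differed by -1.68 with M253K and F266S and by -1.29 with FENG, and both receptors passed both tests (adjusted p up to 0.00102). How far the values depend on the offset added before the logarithm is given under the processing.

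OR51E1 was lower with R1881 than with ethanol in every line. The R1881 minus ethanol difference was -0.56 in control cells, -0.37 with WT, -0.22 with G87R and -0.09 with L388M. It was -0.05 in knockdown cells, -0.33 with D226N, -0.72 with FENG, -0.44 with F266S and -0.02 with M253K. The mean difference was -0.31 ± 0.08 (1.24-fold lower, adjusted p = 0.0224), with 9 of 9 lines lower. OR51E1 was not detected on either array of M253K or F266S or on the R1881 array of FENG, so the differences of these 3 lines are not measured above background. In the 6 lines with both receptors detected on both arrays, a fit added after seeing the data, the difference was -0.27 ± 0.08 (adjusted p = 0.0471) and 6 of 6 lines were lower, with differences of -0.56 to -0.05. Of all genes 13.4% passed the test for R1881, 7.57% in the lower direction. This difference passed the test in 10 of the 18 fits that left out 1 array and did not with median scaling (adjusted p = 0.0765). The fits without either array of control, WT, D226N or F266S did not pass it, with adjusted p up to 0.0593. Without the 3 deviating arrays it was -0.31 (adjusted p = 0.0264).

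OR51E2 differed by -0.21 ± 0.07 (1.16-fold lower) between R1881 and ethanol, which did not pass the test (adjusted p = 0.0627), although 9 of 9 lines were lower. Its differences ran from -0.59 with M253K to -0.02 with F266S, with a median of -0.17, and M253K and F266S were not detected with R1881. In the 6 lines above, its difference was -0.16 ± 0.06 (adjusted p = 0.125). Without the 3 deviating arrays the difference was -0.14 (adjusted p = 0.173). The R1881 differences of both genes were small beside those between constructs.

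**Figure D3:**
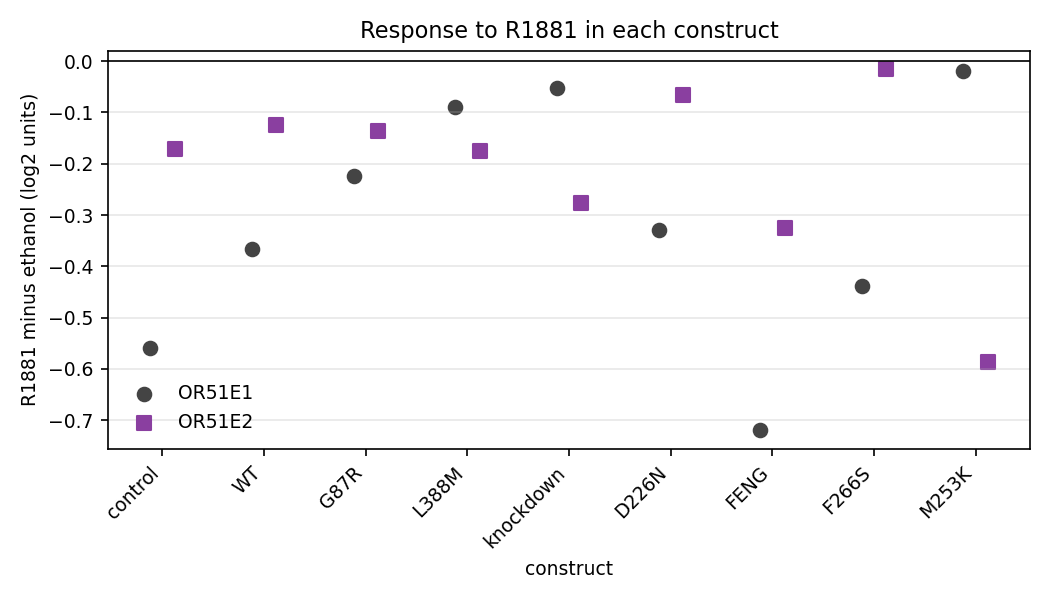
R1881 minus ethanol difference in log2 units (vertical axis) in each construct (horizontal axis), with circles for OR51E1 and squares for OR51E2 and 1 array per treatment behind each point. All points lie below 0, from -0.72 (FENG) to -0.02 (M253K) for OR51E1 and from -0.59 (M253K) to -0.02 (F266S) for OR51E2. The points of M253K, F266S and FENG for OR51E1 and of M253K and F266S for OR51E2 include arrays on which the probe was not detected.

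Whether the response to R1881 depended on the forkhead domain was asked by setting the responses of D226N, M253K and F266S against those of WT, G87R and L388M. For OR51E1 the responses differed by -0.04 ± 0.18 (95% interval -0.44 to 0.36) and for OR51E2 by -0.08 ± 0.19 (95% interval -0.51 to 0.36). Both had an adjusted p of 1.00, and the M253K and F266S values entered include arrays without detection. In this comparison 0% of all genes passed the test with limma, and 400 genes had an unadjusted p under 0.05. The intervals leave room for differences as large as the mean response itself.

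The genes around the pair are mostly other olfactory receptors. Among the 42 genes in the window, the 20 on each side and those between, 17 had a probe and 2 of these, TRIM68 and TRIM21, were detected on at least 2 arrays. Of 30 neighbours with olfactory receptor symbols 13 had a probe, and 0 were detected on at least 2 arrays. MMP26, a matrix metalloproteinase gene that follows OR51E2 in the window, was not detected either.

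**Figure D4:**
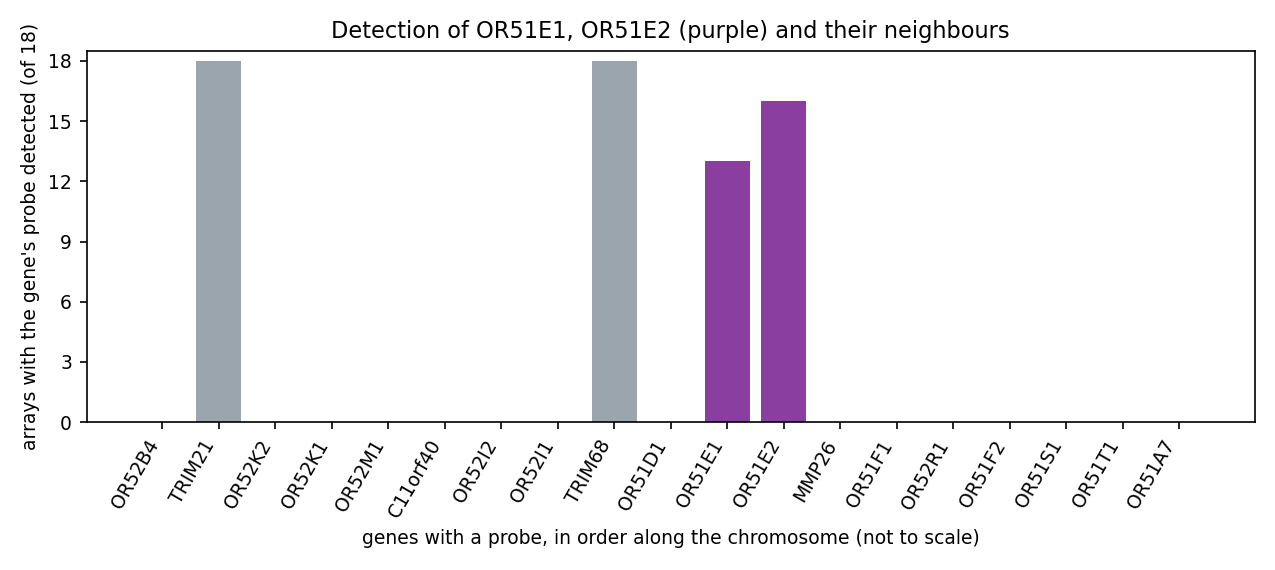
Number of the 18 arrays on which a gene's best probe was detected (vertical axis) for the genes with a probe around the pair, in order along chromosome 11 (horizontal axis, not to scale). OR51E1 (13 arrays) and OR51E2 (16 arrays) are purple, TRIM68 and TRIM21 were detected on 18 arrays, and the other neighbours were not detected on at least 2.

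TRIM68, a ubiquitin ligase, spans chr11:4598672-4608231 and ends 35750 bases before OR51E1. In ethanol it was 10.20 in control cells, 10.01 with WT, 9.98 with G87R and 9.78 with L388M, against 9.00 in knockdown cells, 9.19 with D226N and 8.84 with each of M253K, FENG and F266S. In R1881 it ran from 10.05 in control cells to 8.25 with M253K. Its upper and lower lines were those of the receptors. TRIM68 fell by 1.30 ± 0.15 in knockdown cells (adjusted p = 9.34e-05), rose by 0.94 ± 0.15 with WT (adjusted p = 0.00218) and fell by 1.01 ± 0.10 with M253K and F266S (adjusted p = 2.77e-05). It also fell by 0.83 ± 0.13 with FENG (adjusted p = 0.00166) and by 0.36 ± 0.07 with R1881 (adjusted p = 0.00378). Of all genes 8.30% passed the knockdown test and 4.62% the test of WT against knockdown. TRIM21, an antibody-binding ubiquitin ligase farther from the pair, passed none of these tests, with a knockdown difference of -0.25 (adjusted p = 0.740) and a difference of 0.16 with M253K and F266S (adjusted p = 0.673).

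Other olfactory receptors were mostly not detected. Of 382 with a probe, 17 were detected on at least 2 arrays, and OR7E156P, a pseudogene, and OR9A4 on all 18, by the best-detected probe of each gene. The brighter OR7E156P probe, which was the one tested, was detected on 17 arrays. For receptors with close copies, a probe may also read the copy. None of the 17 passed the limma test for R1881, knockdown or WT against knockdown, where 2, 2 and 1 of them had an unadjusted p under 0.05 and 13.4%, 8.30% and 4.62% of all genes passed. With M253K and F266S 1 of 17 passed, OR4K15, at a level at least 1.73-fold higher (limma, adjusted p = 0.000261), opposite to OR51E1 and OR51E2, beside 15.6% of all genes. It was kept through the lines where it is high, being detected on 6 arrays, 5 of them of M253K, F266S or FENG. OR4K15 was 6.62 and 5.90 with M253K and 5.33 and 4.79 with F266S, and it was not detected with G87R or L388M. Its level with FENG exceeded that of G87R and L388M at least 1.43-fold (adjusted p = 0.0144). The median difference over the 17 was 0.07 with M253K and F266S, beside -0.01 over all genes.

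Components that olfactory receptors use in the nose were few. Of 25 genes of olfactory signalling and receptor trafficking, 10 were detected on at least 2 arrays. LHX2, a homeobox factor that directs olfactory receptor choice in mice, fell by 1.37 ± 0.16 in knockdown cells (adjusted p = 0.000133), by 0.56 with M253K and F266S (adjusted p = 0.00465) and by 0.31 with R1881 (adjusted p = 0.0165). With WT its difference from knockdown was -0.11 (adjusted p = 0.848). REEP1, which helps receptors reach the cell surface, fell by 0.64 with R1881 (adjusted p = 0.00581). The adenylyl cyclase gene of olfactory neurons, ADCY3, differed by -0.51 in knockdown cells (adjusted p = 0.138). No other of the 10 passed a test. In knockdown cells 1 of 10 passed, with M253K and F266S 1 and with R1881 2, beside 8.30%, 15.6% and 13.4% of all genes. With FENG and with WT against knockdown 0 of 10 passed in limma, beside 6.67% and 4.62% of all genes. In these 2 comparisons 1 and 2 of the 10 had an unadjusted p under 0.05. List medians were -0.23 for knockdown and -0.07 for M253K and F266S, beside -0.02 and -0.01 over all genes.

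Receptors for ligands like those of the pair were mostly undetected. Of 13 metabolite receptors, FFAR2, a short-chain fatty acid receptor, and GPR84, a medium-chain fatty acid receptor, were the 2 detected on at least 2 arrays. FFAR2 fell by 0.54 ± 0.16 with R1881 (adjusted p = 0.0426), with undetected values entered as measured. With R1881 it was not detected in control, FENG, F266S or L388M cells, so the size of their falls is not measured above background. With M253K it went the other way, from 4.69 in ethanol, where it was not detected, to 5.55 in R1881. FFAR2 was detected on 13 arrays. Its knockdown difference was 0.88 ± 0.34 (adjusted p = 0.149), and with M253K and F266S it was -0.06 (adjusted p = 0.901).

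Among 52 G protein-coupled receptors known from prostate epithelium and cancer, 27 were detected on at least 2 arrays and moved in both directions. In knockdown cells 5 of 27 rose and 4 fell, beside 8.30% of all genes passing in either direction. S1PR3, a sphingosine 1-phosphate receptor, rose by 4.62 ± 0.24 (adjusted p = 8.46e-08), the prostaglandin receptor PTGER4 rose by 1.22 and GRPR, the receptor of gastrin-releasing peptide, at least 2.15-fold. OPRK1, the kappa opioid receptor, fell by 1.09 (adjusted p = 0.00668). Another of the 4, CXCR4, was detected on the 2 control arrays alone, through which it was kept, so it had to differ. With M253K and F266S 6 rose and 5 fell, beside 15.6% of all genes, among them the adenosine receptor ADORA2A, which rose by 1.06, and OPRK1, which fell by 1.34 (adjusted p = 7.13e-05). Another of the 6, ADGRF1, was at least 1.11-fold higher. It was detected on 4 arrays, 2 of them of M253K or F266S and 0 of G87R or L388M, so its call is not independent of the filter. With R1881 3 rose and 7 fell, beside 13.4% of all genes. PTGER4 rose by 1.09, GRPR by 0.94 and the lysophosphatidic acid receptor LPAR3 by 0.80, while OPRK1 fell by 1.74 (adjusted p = 5.16e-07) and the chemokine scavenger ACKR3 by 0.64.

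OPRK1 was the 1 receptor of the 27 that passed the test with FENG, where it fell by 1.41 ± 0.19 (adjusted p = 0.000508), beside 6.67% of all genes. With WT against knockdown 2 of 27 passed, beside 4.62% of all genes. LPAR3 rose by 0.65 and S1PR3 fell by 1.58, and OPRK1 differed by 0.68 (adjusted p = 0.111). OPRK1 fell in knockdown cells, with M253K and F266S, with FENG and with R1881, and of these R1881 gave its largest difference. The list's median was 0.08 for knockdown and 0.13 for M253K and F266S, beside -0.02 and -0.01 over all genes.

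Of 25 genes of cyclic AMP and ERK signalling 14 were detected on at least 2 arrays. Of these 14, 1 passed for knockdown, 1 for WT against knockdown, 2 with M253K and F266S and 1 with FENG. The shares of all genes that passed were 8.30%, 4.62%, 15.6% and 6.67%, so these counts do not set the list apart. PDE4B, a phosphodiesterase that degrades cyclic AMP, rose at least 1.59-fold in knockdown cells (adjusted p = 0.00675), fell at least 1.61-fold with WT (adjusted p = 0.0486) and rose at least 1.27-fold with M253K and F266S (adjusted p = 0.0278). It was detected on 8 arrays, and on 0 arrays of control, WT, G87R or L388M. PDE4B was thus kept through the lines where it is high, so these tests are not independent of the filter. DUSP6, an ERK phosphatase induced by ERK signalling, rose by 1.31 ± 0.16 with M253K and F266S (adjusted p = 0.000142) and by 0.88 with FENG (adjusted p = 0.0194). With R1881 3 of 14 passed, beside 13.4% of all genes. MAP2K1, which encodes the ERK kinase MEK1, rose by 0.31, and the phosphodiesterase PDE4D and the adenylyl cyclase ADCY1 fell by 0.63 and 0.57. In none of the lists did a gene pass the test of the difference in response.

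Across the 18 arrays, OR51E1 and OR51E2 had a Pearson correlation of 0.96, and each was the gene most like the other among 11589. Without the control arrays the correlation was 0.95 over 16 arrays. The arrays share constructs and treatments, so this describes how the levels ran together and is given without a test. Next to OR51E2, the genes most like OR51E1 were GYG2, a glycogenin (r = 0.96), DENND1A, an exchange factor for Rab proteins (0.95), ACP3, prostatic acid phosphatase (0.94), and ZFP90, a zinc finger gene (0.93). ACP3 spanned 7.80 to 11.47 and GYG2 6.98 to 8.14. TRIM68 was 7th for OR51E1 (0.93) and 8th for OR51E2 (0.92). Most opposite to OR51E1 were KRTCAP3 (-0.95), the histone gene H2BC21 (-0.95) and LCN2, which encodes the iron-scavenging protein lipocalin 2 (-0.95) and spanned 7.68 to 13.51. For OR51E2 the list continued with MYL6B, a myosin light chain, ZFP90 and GYG2 (0.94 each) and PALM (0.93), and the most opposite were the aldehyde dehydrogenase gene ALDH3A2, H2BC21 and CLTRN (-0.95 each).

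Of 6 luminal markers listed, KRT8, EPCAM and HOXB13 were detected on 18 arrays and KRT18 on 17, the exception being M253K with ethanol. These 4 had a summed signal of 3319 to 3621 with M253K and F266S and 2819 to 3671 with G87R and L388M. HOXB13 fell by 0.64 with M253K and F266S (adjusted p = 0.00447) and EPCAM by 0.64 in knockdown cells (adjusted p = 0.0235). Of 3 leukocyte markers CD68, a lysosomal protein, was detected and its signal was 442.4 to 1011 with M253K and F266S, 125.8 to 287.0 with G87R and L388M, 613.7 to 749.4 in knockdown cells and 96.3 to 147.6 in control cells. The other leukocyte markers, PTPRC and CD3E, were detected on 0 arrays. Of 4 basal markers KRT15 was kept (33.9 to 65.3 with M253K and F266S, 20.2 to 22.0 with G87R and L388M), and KRT5 and KRT14 were detected on 0 arrays. KRT15 was detected on 7 arrays, and on 0 of those of G87R and L388M, so it was kept through the lines where it is high. Of 8 neuroendocrine markers ENO2 was kept (122.3 to 296.4 and 228.4 to 509.0), and CHGA, CHGB, SYP, NCAM1, SCG3 and INSM1 were each detected on at most 1 array. Of 3 endothelial markers VWF was kept (108.5 to 138.9 and 68.5 to 119.9) and PECAM1 and CDH5 were detected on 0 arrays. Of 5 fibroblast markers COL1A1 and LUM were kept (summed 55.2 to 64.8 and 51.2 to 55.2) and COL1A2, DCN and PDGFRA were detected on 0 arrays. The part of these marker differences in the levels of OR51E1 and OR51E2 was not tested.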

How the data were processed

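The authors deposited a non-normalized table of bead-array intensity and detection p-value for 47303 probes on 18 arrays, and a second table of processed intensity values (lowest -15.4) whose normalization is not stated. The submitters' processing notes name GenomeStudio without a version. Intensities were background-corrected and quantile-normalized with neqc in limma 3.58.1 (R 4.3.3, statmod 1.5.0), which uses the detection p-values, adds an offset of 16 and takes log2. The 20117 probes detected (p under 0.01) on at least 2 arrays were kept. The brightest probe stood for each of 11590 genes, named through the platform annotation (30102 probes with 1 gene, 8 with several, 17193 with none) and RefSeq.

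With 1 array per condition, limma was fitted to construct plus treatment over all 18 arrays, with 8 residual degrees of freedom, so p-values measure only the spread around additive effects, which may be technical. The difference in response was fitted to the R1881 and ethanol difference of each of the 9 constructs, leaving 4 degrees of freedom. Benjamini-Hochberg adjustment ran over all genes, with a threshold of 0.05. The fits were tested on simulated data. Precision is limited by the number of arrays. The receptor pair, the gene lists and the tests were chosen with earlier results of these data known. Named were the pair, the 5 genes most like and the 3 most opposite to each, members of short lists, and up to 6 of longer lists among those with the largest difference in a comparison. CXCR4 and ADGRF1 were named for the way they passed the filter. Alternatives changed the background correction, normalization, offset, filter, source table, probe summary, empirical Bayes step and arrays.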

Additional observations from a re-analysis of the deposited data

How the results depend on the processing

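The tests of R1881 and of the difference in response use R1881 against ethanol within each line, whereas the other tests compare different lines over both treatments. No replicate block could be added because each condition has 1 array and the labels give no replicate numbers. The calls of OR51E1 and OR51E2 for M253K and F266S against G87R and L388M, and for FENG against G87R and L388M, held in all 26 alternatives that kept the pair, but their size depended on the background. Fitted log2 differences, with undetected OR51E1 arrays entered as measured, for M253K and F266S were -0.73 (OR51E1) and -0.69 (OR51E2) without background correction and -1.04 and -0.96 with an offset of 50, and for FENG -0.66 and -0.63, and -0.93 and -0.88. For R1881 they were -0.15 and -0.09, and -0.19 and -0.13. Requiring detection on all arrays removes both genes. The fall of OR51E1 with R1881 did not pass the test with median scaling (-0.32, adjusted p = 0.0765) and ran from -0.35 to -0.26 with 1 array left out (adjusted p 0.0104 to 0.0593). That of OR51E2 passed with no filter (-0.21, adjusted p = 0.0497) and ran from -0.23 to -0.16. The difference in response, which passed in none, changed sign for OR51E1 without background correction (0.0423), with median scaling (0.0713) and with an offset of 50 (0.0456), and for OR51E2 without background correction (0.00668), with median scaling (0.0576) and without the deviating arrays (0.109). With 1 construct left out it ran from -0.16 to 0.0513 and from -0.18 to 0.10. Median scaling called 941 genes for R1881, 942 for M253K and F266S, 372 for FENG and 4 for the difference in response, against 1556, 1811, 773 and 0. Without the deviating arrays 469 were called for FENG. With 1 array left out, the counts ran from 1185 to 1910 for R1881, 1145 to 2539 for M253K and F266S, 347 to 1122 for FENG and 0 to 1 for the difference in response. Counts for M253K and F266S dropped by over 1.5 times without F266S ethanol (1176), F266S R1881 (1145) or L388M R1881 (1195), and those for FENG without G87R ethanol (489), G87R R1881 (484), FENG R1881 (347) or L388M R1881 (450). The cause of these changes was not tested.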
